A study of Homo sapiens with 4 samples.

Results

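The ZSCAN and ZKSCAN genes encode zinc finger proteins that carry a SCAN domain. All protein-coding genes whose name begins with ZSCAN or ZKSCAN followed by a digit were taken, which gave 28 of the 20024 genes in the count table. The members were selected on name and gene type, but the group itself was chosen by someone to whom fold changes between knockdown and control in these libraries, among them that of ZSCAN31, were already known. Differences between knockdown and control in these genes are therefore given as a description. The libraries came from SJSA-1, an established human osteosarcoma line, with 2 libraries from cells with knockdown of the transcription factor ZNF217 and 2 from control cells. The sources used here do not give the knockdown reagent or what the control cells received. All 4 libraries are from 1 cell line, and nothing in the labels describes separate cultures, so a p-value reflects how far these 4 libraries scatter, and part of that scatter may be technical. In bulk RNA, fewer cells expressing a gene and less RNA per cell cannot be told apart.

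The SCAN domain is a protein-protein interaction domain through which members of the family pair with themselves or with each other. The C2H2 zinc fingers that follow it bind DNA. Proteins named ZKSCAN also carry a KRAB domain, a module known for recruiting the corepressor TRIM28, whereas many ZSCAN proteins lack one. Many of these genes lie side by side in the genome.

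ZSCAN31 stood out among the members. The RefSeq starts used here are 1 near the beginning of the gene and a group further along the minus strand. GENCODE lists 13 transcript starts for ZSCAN31. The gene ZKSCAN3 begins on the plus strand between the RefSeq starts of ZSCAN31. The 3 promoter windows below show the RefSeq starts of both genes. A further ZSCAN31 window, chr6:28336085-28336384, overlaps the second and is not printed. Each runs from 250 bases before to 50 bases after a RefSeq start on GRCh38.p14 and is written in the direction of its gene. The first is chr6:28356222-28356521, the second chr6:28336099-28336398 and the third chr6:28349697-28349996. Capitals mark CAGAA or its reverse complement TTCTG, the core of the sequence reported for ZNF217 binding.
ZSCAN31 upstream start: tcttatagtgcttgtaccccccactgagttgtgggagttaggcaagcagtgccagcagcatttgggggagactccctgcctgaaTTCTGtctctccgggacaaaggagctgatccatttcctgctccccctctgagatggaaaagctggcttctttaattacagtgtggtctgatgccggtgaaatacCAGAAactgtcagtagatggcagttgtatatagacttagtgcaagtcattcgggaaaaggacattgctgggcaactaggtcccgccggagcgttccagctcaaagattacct
ZSCAN31 downstream start: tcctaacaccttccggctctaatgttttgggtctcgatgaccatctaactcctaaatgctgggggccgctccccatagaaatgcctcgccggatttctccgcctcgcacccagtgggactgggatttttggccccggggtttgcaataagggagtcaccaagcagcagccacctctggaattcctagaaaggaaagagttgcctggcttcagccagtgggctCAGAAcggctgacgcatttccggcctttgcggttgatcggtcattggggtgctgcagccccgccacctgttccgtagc
ZKSCAN3 start: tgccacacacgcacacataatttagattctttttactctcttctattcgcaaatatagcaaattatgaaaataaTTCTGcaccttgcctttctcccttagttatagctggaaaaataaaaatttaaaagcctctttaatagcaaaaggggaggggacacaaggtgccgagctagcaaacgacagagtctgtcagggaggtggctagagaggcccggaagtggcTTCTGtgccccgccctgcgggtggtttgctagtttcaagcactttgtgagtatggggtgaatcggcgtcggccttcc
The upstream ZSCAN31 window held 2 matches to CAGAA on either strand, the downstream window 1 and the ZKSCAN3 window 2. The upstream window held 6 CpG and was 50.3% G and C, whereas the downstream window held 15 CpG and was 57.3% G and C. RefSeq promoter windows were found for 24 of the 28 members, 39 windows in all. CAGAA was present in 22 of them (56.4%), against 54.4% of all 35116 promoters of that length. GGAAGTG, an ETS-type motif searched on both strands, was present in 10 (25.6%), against 11.2% of all promoters. A motif of the interferon-response type, GAAA repeated after a gap of 2 bases, was present in 1 (2.56%), against 3.57%. These are matches of letters, not binding sites. Some windows of the same gene overlap, so the 39 are not independent. The member windows held a median of 21 CpG, against 14 over all promoters.

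The libraries held 24428774 and 23217521 counts in the knockdown group and 21466327 and 24487126 in the control group. ZNF217 (ENSG00000171940) was at 37.6 and 31.9 CPM (counts scaled to the library total) after knockdown, against 66.2 and 73.4 CPM in control. The knockdown group was at 49.7% of the control level, a log2 fold change of -1.01 (SE 0.20). The quasi-likelihood test of edgeR gave it an adjusted p of 0.207, and DESeq2 gave 0.0115. The control libraries differed more from each other than the knockdown libraries did, with a biological coefficient of variation of 0.0782 between knockdown libraries and 0.39 between controls. Of 8 osteoblast markers 3 were tested. SPARC was at 1260 and 1300 CPM after knockdown, against 1020 and 1160 CPM in control. RUNX2 was at 16.5 CPM in both knockdown libraries, against 11.2 and 17.4 CPM in control, and COL1A1 at 8.43 and 9.05 CPM after knockdown, against 3.51 and 17.1 CPM in control. SP7, ALPL, COL1A2, IBSP and BGLAP were at 0.25 CPM or less in every library. MDM2 and CDK4, which lie in the amplified region known for SJSA-1, were at 46.3 and 38.9 CPM and at 331 and 367 CPM after knockdown, against 41.0 and 30.4 CPM and 349 and 184 CPM in control. No marker of blood, endothelial or epithelial cells passed the low-count filter, and the highest value was 0.937 CPM, for EPCAM.

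ZSCAN31 (ENSG00000235109, chromosome 6, 28324693 to 28356271, minus strand of GRCh38) had 329 and 336 counts after knockdown, against 14 and 23 counts in control. That was 12.8 and 14 CPM after knockdown, against 0.647 and 1.03 CPM in control. The groups did not overlap, and each knockdown library was far above each control. The means were 13.4 ± 0.826 CPM after knockdown and 0.837 ± 0.268 CPM in control (SD, n = 2 each), a ratio of 16. The fitted log2 fold change was 3.99 (SE 0.39), which ranked 47th from the top of the 12965 genes tested. Of all tested genes, 0.702% had a log2 fold change of 3 or more. Per length, ZSCAN31 was at 8.59 and 8.97 TPM (counts scaled to gene length and library) after knockdown, against 0.44 and 0.576 TPM in control. Against control replicate 2 alone the log2 fold change was 3.69, and against control replicate 1 alone it was 4.36. None of the 5648 stretches of 50 bases in its transcripts occurred, on either strand, in the transcripts of another gene. The transcripts searched include those of ZKSCAN3, whose gene overlaps ZSCAN31 on the opposite strand. The sources used here do not give the strand setting of the counting.

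Of the 28 members, 21 passed the low-count filter and were tested. By edgeR 0 of them were called, as were 0% of all genes tested, and the lowest adjusted p among members was 0.127, for ZSCAN31. At an unadjusted edgeR p under 0.05, 2 members were higher, ZSCAN31 and ZSCAN16, and 0 were lower, where 13.0% of all genes tested met this mark in either direction. DESeq2 called 1 member, ZSCAN31, which was higher after knockdown, where it called 1.76% of all genes higher and 3.80% in either direction. Both knockdown libraries were above both controls for 10 members, where 25.4% of all tested genes lay that way. Both were below both controls for 2 members, where 22.9% of all tested genes lay that way, and the groups overlapped for 9 members. The groups lay apart in 48.3% of all tested genes, in either direction. These shares describe genes chosen with this contrast known. The median log2 fold change of the tested members was 0.24, beside -0.01 for all tested genes, and leaving out ZSCAN31 gave the same median of 0.24.

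**Figure D1:**
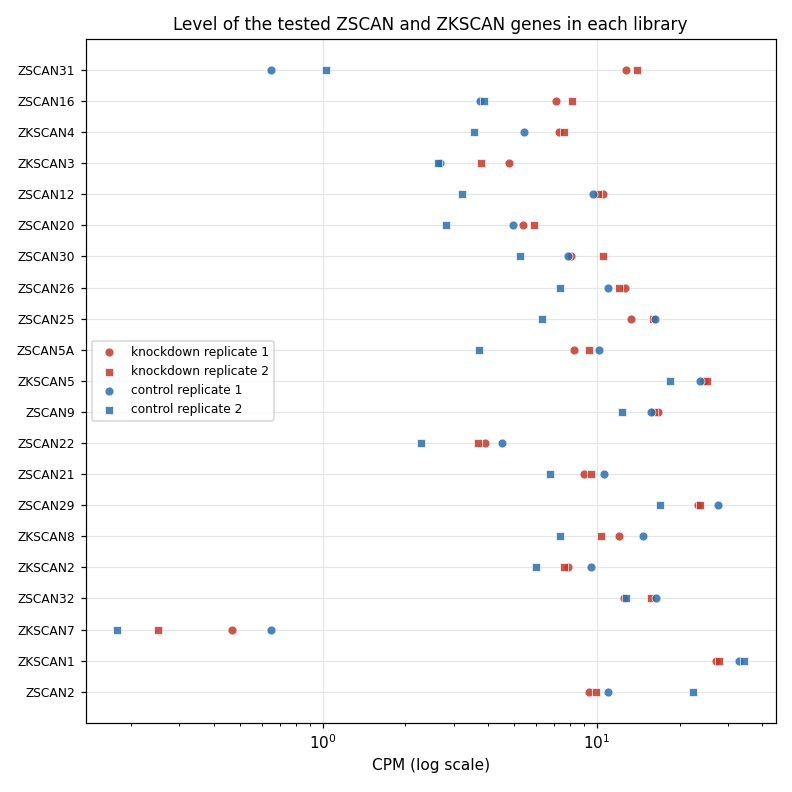
Level of each of the 21 tested members in CPM on a log scale, 1 point per library, red for knockdown and blue for control, with circles for replicate 1 and squares for replicate 2, ordered by log2 fold change. ZSCAN31, in the top line, is at 12.8 and 14 CPM after knockdown and at 0.647 and 1.03 CPM in control, while most other members have a control replicate 2 that lies left of the remaining points.

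ZSCAN31 belongs to a cluster of 9 members on chromosome 6, between positions 28124560 and 28443502, a span of 319 kb. ZSCAN23 in this cluster was too low to be tested. Of the other 8, 7 had both knockdown libraries above both controls, 0 had both below and 1 overlapped, where 25.4% of all tested genes were higher and 22.9% lower in this way. Their median log2 fold change was 0.68, also without ZSCAN31, whereas the 13 tested members elsewhere had a median of 0.09, with 3 higher, 2 lower and 8 overlapping. Leaving out control replicate 1 gave a cluster median of 0.84, and leaving out control replicate 2 gave 0.31. Without ZSCAN31 these medians were 0.73 and 0.17. For the 13 members elsewhere they were 0.45 and -0.22. The difference between cluster and other members was not tested.

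ZSCAN16, the first gene of the cluster by position, had both controls close together. It was at 7.07 and 8.09 CPM after knockdown, against 3.75 and 3.88 CPM in control. The groups did not overlap, and its log2 fold change was 0.99 (SE 0.32). Of its 50-base stretches, 11.7% also occur in its antisense gene ZSCAN16-AS1, so its value is uncertain. Against either control alone its log2 fold change was 0.95 or 1.01. Per length it averaged 19.2 TPM after knockdown, the highest of the members there, and 9.16 TPM in control, where 8 members were higher.

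Both KRAB-bearing neighbours ZKSCAN4 and ZKSCAN3 had the knockdown libraries above the controls. ZKSCAN4 was at 7.3 and 7.55 CPM after knockdown, against 5.41 and 3.57 CPM in control, a log2 fold change of 0.73 (SE 0.36), or 1.04 against control replicate 2 alone and 0.45 against control replicate 1 alone. ZKSCAN3, known as a repressor of autophagy and lysosome genes, was at 4.76 and 3.79 CPM after knockdown, against 2.68 and 2.63 CPM in control. Its log2 fold change was 0.69 (SE 0.37). These 2 genes resemble each other: 9.07% of the 50-base stretches of ZKSCAN4 occur in ZKSCAN3, and reads could be split between them. The third KRAB-bearing neighbour, ZKSCAN8, overlapped between groups, at 12 and 10.3 CPM after knockdown, against 14.7 and 7.32 CPM in control.

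ZSCAN12 was at 10.5 and 10.1 CPM after knockdown, against 9.71 and 3.21 CPM in control. The groups did not overlap, but control replicate 1 was close to the knockdown libraries and control replicate 2 far below them. Its log2 fold change was 0.68 (SE 0.55), and it was 1.67 against control replicate 2 alone and 0.09 against control replicate 1 alone. ZSCAN26 was at 12.6 and 12 CPM after knockdown, against 11 and 7.36 CPM in control, a log2 fold change of 0.43 (SE 0.31). ZSCAN9 was at 16.7 and 16.1 CPM after knockdown, against 15.7 and 12.3 CPM in control, a log2 fold change of 0.23 (SE 0.25). For both, the groups did not overlap while the gap to control replicate 1 was narrow. Against control replicate 2 alone the values were 0.73 for ZSCAN26 and 0.41 for ZSCAN9, and against control replicate 1 alone they were 0.17 and 0.07. ZSCAN26 shares 8.04% of its 50-base stretches with an overlapping gene, AL021997.3, which had at most 1 count in each library.

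Within 250 kb of ZSCAN31 lie 7 protein-coding genes that are not members. The 3 that were tested, ZNF165, PGBD1 and ZBED9, are SCAN genes under other names. ZNF165 was at 3.75 and 4.13 CPM after knockdown, against 1.85 and 5.4 CPM in control. PGBD1 was at 11 and 13.1 CPM after knockdown, against 12.4 and 9.86 CPM in control. ZBED9 was at 3.98 and 4.13 CPM after knockdown, against 5.23 and 2.1 CPM in control. The groups overlapped in each, with log2 fold changes of 0.12, 0.11 and 0.15. The promoter windows of cluster members held GGAAGTG in 6 of 14 (42.9%), beside 11.2% of all promoters, and CAGAA in 9 of 14 (64.3%), beside 54.4%. The windows of ZSCAN31 held no GGAAGTG, and each held CAGAA. ZSCAN16 and ZSCAN26 had no window, and several windows of 1 gene overlap, so the 14 are not independent.

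**Figure D2:**
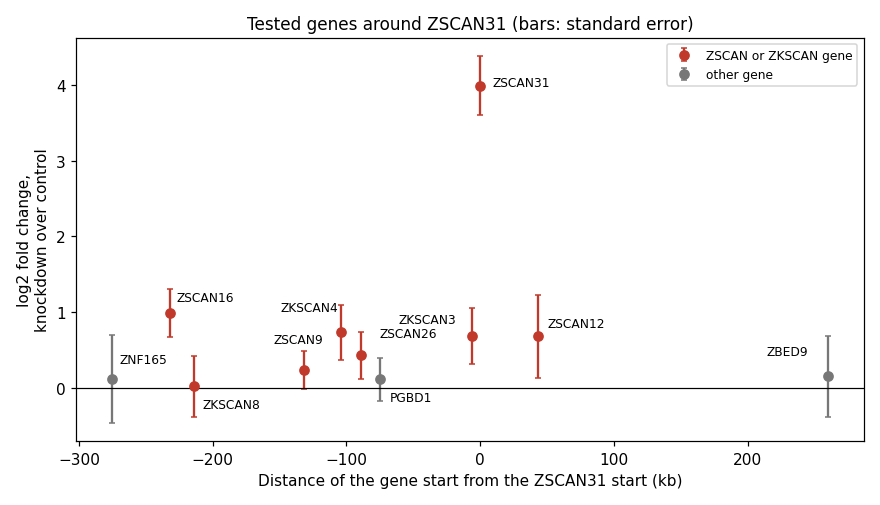
Log2 fold change, knockdown over control, with its standard error for each tested gene near ZSCAN31, by distance of its start from the ZSCAN31 start in kb, with members in red and other genes in grey. ZSCAN31 is at 3.99 and every other gene shown is between 0.02 and 0.99.

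Of the members outside the chromosome 6 cluster, 3 were given in full for the size of their difference. ZSCAN20 was at 5.39 and 5.88 CPM after knockdown, against 4.95 and 2.81 CPM in control. ZSCAN30 was at 8.04 and 10.5 CPM after knockdown, against 7.81 and 5.22 CPM in control. Both lay apart from control, with log2 fold changes of 0.54 and 0.51 and standard errors of 0.41 and 0.35. Against control replicate 2 alone the values were 0.99 for ZSCAN20 and 0.81 for ZSCAN30, and against control replicate 1 alone they were 0.18 and 0.24. ZSCAN2 was the member with the lowest fold change, at 9.37 and 9.92 CPM after knockdown, against 11 and 22.4 CPM in control, a log2 fold change of -0.79 (SE 0.40). That value was -1.22 against control replicate 2 alone and -0.19 against control replicate 1 alone. Of its 50-base stretches, 23.9% occur in other transcripts, so it is uncertain.

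On chromosome 7, ZKSCAN5, ZSCAN25, ZKSCAN1 and ZSCAN21 lie within 560 kb of one another. ZKSCAN5 was at 24.6 and 25.1 CPM after knockdown, against 23.7 and 18.4 CPM in control, a log2 fold change of 0.24 (SE 0.23), or 0.42 against control replicate 2 alone and 0.07 against control replicate 1 alone. ZKSCAN1, whose locus is also known for a circular RNA, was at 27.1 and 27.8 CPM after knockdown, against 33.0 and 34.4 CPM in control. The groups did not overlap for either, ZKSCAN5 being higher and ZKSCAN1 lower, with a log2 fold change of -0.30 and a standard error of 0.19 for ZKSCAN1. ZSCAN21, reported as an activator of the alpha-synuclein gene, was at 8.98 and 9.51 CPM after knockdown, against 10.6 and 6.74 CPM in control. ZSCAN25 was at 13.3 and 16.0 CPM after knockdown, against 16.3 and 6.29 CPM in control. In both, the controls lay on either side of the knockdown libraries, and the log2 fold changes were 0.09 and 0.37. Of the stretches of ZSCAN21, 36.6% also occur in ZNF3, so reads of this pair cannot be assigned with certainty.

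The remaining 6 tested members, ZSCAN5A, ZSCAN22, ZSCAN29, ZKSCAN2, ZSCAN32 and ZKSCAN7, overlapped between groups. Their log2 fold changes, in that order, were 0.34, 0.16, 0.07, -0.01, -0.05 and -0.19. ZSCAN5A was at 8.24 and 9.38 CPM after knockdown, against 10.2 and 3.7 CPM in control. ZSCAN32 is the least certain of all members, since 75.3% of its stretches occur in other transcripts. ZKSCAN7 was the lowest member tested, with 12 and 6 counts after knockdown, against 14 and 4 counts in control. By name, the median log2 fold change was 0.02 for the 7 ZKSCAN genes, with 3 higher and 1 lower, and 0.36 for the 14 tested ZSCAN genes, with 7 higher and 1 lower. In each of these subgroups the groups lay apart for 57.1% of tested genes, beside 48.3% of all tested genes. The difference between the subgroups was not tested.

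The 7 members not tested had at most 5 counts in every library. ZSCAN1 had 0 counts throughout, for which the upper limits by counting error are 0.117 and 0.125 CPM after knockdown and 0.139 and 0.134 CPM in control. ZSCAN4, known from the cleavage-stage mouse embryo, had 3 and 0 counts after knockdown, against 1 and 0 counts in control. ZSCAN10, known from pluripotent stem cells, had 1 and 0 counts in each group. ZSCAN23 had 5 and 4 counts after knockdown, against 4 and 2 counts in control, and ZSCAN5B, ZSCAN5C and ZSCAN18 had at most 2 counts in any library. No difference between groups was detectable in these genes at this depth.

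By level per length, the 5 highest members over all libraries were ZSCAN16, ZSCAN21, ZSCAN9, ZKSCAN5 and ZSCAN26, with mean TPM of 14.2, 13.4, 13.1, 12.1 and 11.7. That order pools both groups and differs within them. ZSCAN16 averaged 19.2 TPM after knockdown and 9.16 TPM in control, and ZSCAN21 averaged 14 TPM after knockdown and 12.8 TPM in control, where it was the highest member. ZSCAN31 averaged 8.78 TPM after knockdown and 0.508 TPM in control, so it stood among the middle of the tested members in one group and near the bottom in the other. The 28 members together made up 0.01621% and 0.01623% of the summed TPM after knockdown, against 0.01564% and 0.009803% in control. The sum was lowest in control replicate 2. Control replicate 2 was below control replicate 1 in 17 of 21 tested members, where 50% of all tested genes lay that way. It was the lowest of the 4 libraries in 16 members (76.2%), where 37.1% of all genes lay that way. The median log2 difference of control replicate 2 minus control replicate 1 was -0.59 over the members and -0.00 over all tested genes, and that of knockdown replicate 2 minus 1 was 0.04 over the members. The median log2 fold change of the members was 0.72 when control replicate 1 was left out and -0.16 when control replicate 2 was left out. The part of this library in each fold change was not tested beyond these values. Every member whose groups did not overlap, ZSCAN31 among them, had the same direction against each control alone. Groups that do not overlap make this likely in advance.

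**Figure D3:**
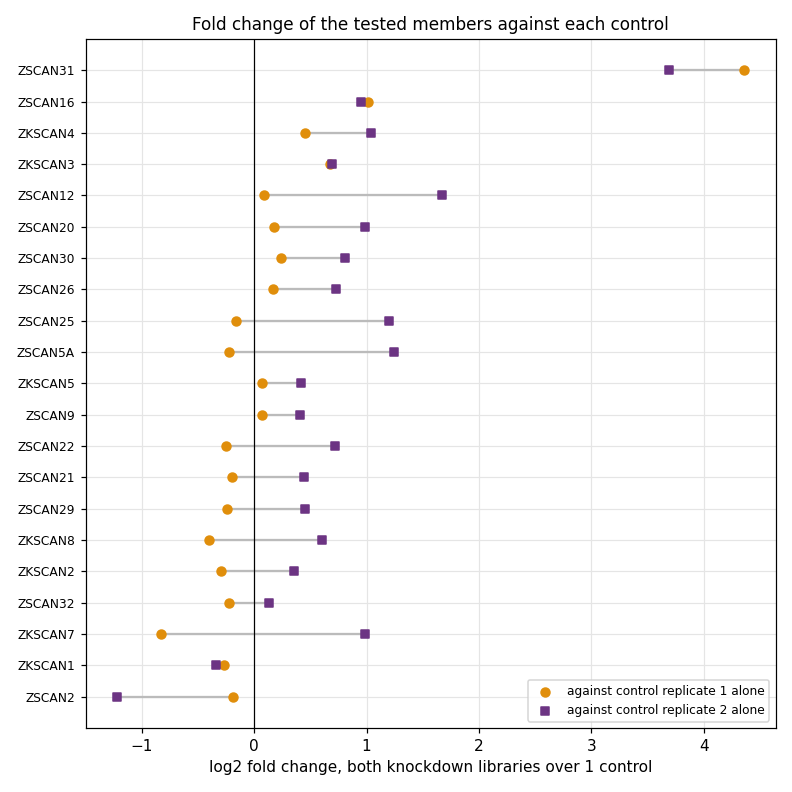
Log2 fold change of both knockdown libraries over 1 control library for the 21 tested members, with orange circles against control replicate 1 and purple squares against control replicate 2. The squares are to the right of the circles for most members, with medians of -0.16 for circles and 0.72 for squares, while both points of ZSCAN31 are above 3.

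SCAN domain genes also exist under other names. Of 28 listed, 26 were tested, edgeR and DESeq2 called 0, and 1 was lower and 0 higher at an unadjusted p under 0.05 by edgeR. Of all tested genes, 13.0% met that mark. Both knockdown libraries were above the controls in 7 and below in 3, so the groups lay apart in 38.5%, beside 48.3% of all tested genes. The median log2 fold change was 0.07, or 0.26 against control replicate 2 alone and -0.02 against control replicate 1 alone. The 1 lower gene, ZNF496, was at 39.3 and 43.9 CPM after knockdown, against 59.9 and 66.8 CPM in control. The 2 with the next smallest p were ZNF232, at 12.1 and 14.3 CPM after knockdown, against 9.71 and 7.27 CPM in control, and MZF1, at 7.46 and 9.34 CPM after knockdown, against 12.3 and 12.8 CPM in control.

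The KRAB corepressor genes were examined because ZKSCAN proteins carry a KRAB domain. Whether these proteins use that machinery was not tested. All 13 found were tested, edgeR and DESeq2 called 0, and 1 was lower at an unadjusted edgeR p under 0.05, beside 13.0% of all tested genes in either direction. Both knockdown libraries were above the controls in 3 and below in 5, where 25.4% of all tested genes were higher and 22.9% lower in this way. The median log2 fold change was -0.04, or -0.03 against control replicate 2 alone and -0.37 against control replicate 1 alone. CBX3, a heterochromatin protein, was at 411 and 387 CPM after knockdown, against 546 and 544 CPM in control. TASOR, a subunit of the silencing complex HUSH, was at 63.9 and 54.4 CPM after knockdown, against 84.3 and 74.1 CPM in control. CBX1 and CBX5, further heterochromatin proteins, were at 98.3 and 99.2 CPM and at 136 and 132 CPM after knockdown, against 127 and 111 CPM and 124 and 68.5 CPM in control. TRIM28, the corepressor that KRAB domains bind, was at 500 and 571 CPM after knockdown, against 778 and 552 CPM in control. Its groups overlapped.

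Of 8 genes reported as targets of ZKSCAN3, all were tested and edgeR and DESeq2 called 0. The list was not split by whether ZKSCAN3 was reported to repress or to activate a gene. The knockdown libraries were above the controls in 1 and below in 2, beside 25.4% and 22.9% of all tested genes. At an unadjusted edgeR p under 0.05, 1 was higher and 1 lower, beside 13.0% of all tested genes in either direction. The median log2 fold change was -0.30, or -0.58 against control replicate 2 alone and 0.08 against control replicate 1 alone. CCND2, a D-type cyclin, was at 44.6 and 45.9 CPM after knockdown, against 30.2 and 23.5 CPM in control. ULK1, a kinase that starts autophagy, was at 15.9 and 17.4 CPM after knockdown, against 22.2 and 82.8 CPM in control. WIPI2, another autophagy gene, was at 110 and 107 CPM after knockdown, against 114 and 163 CPM in control. In ULK1 and WIPI2 control replicate 1 was closer to the knockdown libraries than control replicate 2 was.

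For part of the members, the authors' deposited table gave mean counts far from those of the 4 libraries. Which libraries entered that table is not stated in the sources used here. Of the 23 members with a mean normalized count of 10 or more in it, 6 were over 2-fold above the mean of the 4 libraries and 2 were over 2-fold below. Over all genes, 3285 of 13212, or 24.9%, were over 2-fold away. That mean was taken over TMM-scaled counts at the average library total, with a floor for very low means. Counts of the 4 libraries given below for single genes are unscaled. In the authors' deposited table ZSCAN31 had a mean of 71, against a mean count of 176 in the 4 libraries, and its log2 fold change there, read as control over knockdown, was -0.0033. ZKSCAN1 had a mean of 1.81e+03 in the authors' deposited table, against 711, and ZKSCAN8 a mean of 821, against 259. ZSCAN5A was at 57.9 in the authors' deposited table, against 185. ZNF217 itself had a mean of 2.35e+03 in the authors' deposited table, against 1.2e+03. Its log2 fold change there, read as control over knockdown, was 0.56, with an adjusted p of 0.622 by the authors' DESeq2. These values were used for no test.

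**Figure D4:**
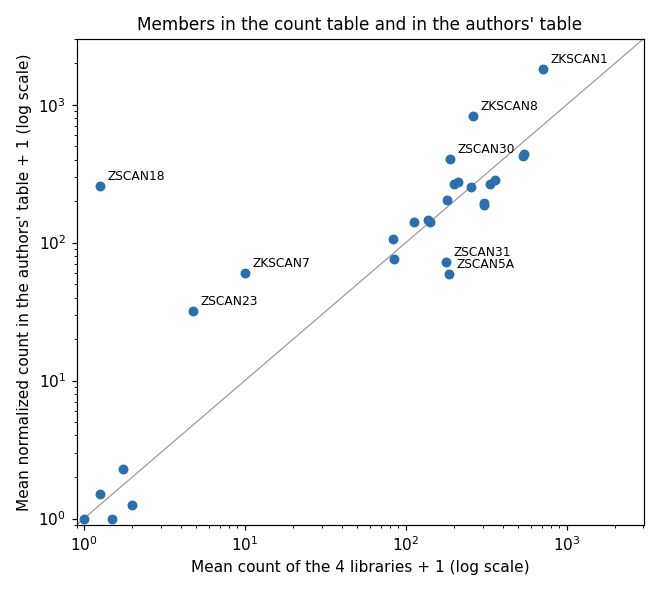
Mean normalized count in the authors' deposited table against the mean count of the 4 libraries, each plus 1 and on a log scale, 1 point per member, with a grey line of equal values. ZSCAN18, ZSCAN23, ZKSCAN7, ZKSCAN8, ZSCAN30 and ZKSCAN1 lie above the line by over 2-fold, and ZSCAN31 and ZSCAN5A below it.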

How the data were processed

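The deposited table holds raw read counts per gene, 1 column per library, and a deposited signal for each library carries the name TPM, though its columns sum to 10 times a TPM total. Trimmomatic, HISAT2, Subread, DESeq2 and the GRCh38 genome are named in the submitters' processing notes, without versions. The authors' deposited table of log2 fold changes, p-values and mean normalized counts (signal) is from DESeq2 per the file headers and was used for no test. The sources used here give neither strand setting nor annotation.

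The test was that of edgeR 4.0.16 under R 4.3.3 (quasi-likelihood test, TMM scaling, no covariate) after its low-count filter (minimum count 10, total 15). P-values were two-sided and adjusted by Benjamini-Hochberg over all 12965 tested genes, with a threshold of 0.05. CPM used TMM-scaled totals, and TPM used the deposited gene length. Standard errors are the log2 fold change over the square root of F. The fits were tested on simulated data. DESeq2 1.42.0 and limma 3.58.1 were alternatives, as were other scalings and filters, the replicate number as a block and each library left out. Positions are from GENCODE release 29 on GRCh38, promoters from RefSeq on GRCh38.p14. A cluster holds members within 500 kb of another. Shared 50-base stretches were counted in GENCODE transcripts. Intervals and limits (3 counts for a count of 0) cover counting error only. Figures were drawn with matplotlib 3.10.9.

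Members and lists were chosen with earlier results of these data known. Given in full were ZSCAN31, members whose groups did not overlap with an absolute log2 fold change over 0.5, and the 5 highest per length. From other lists, genes called by any tool or the 3 with the smallest p were named, and tested genes within 250 kb of ZSCAN31. TRIM28, CBX1 and the values of further members were added after their values were seen.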

Additional observations from a re-analysis of the deposited data

Results flagged for a closer look

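ZSCAN18, a member reported as silenced by methylation in digestive tract cancers, had 1 and 0 counts after knockdown and 0 and 0 counts in control. In the authors' deposited table its mean normalized count was 255. It was singled out because a signal stands in that table for a gene that the 4 libraries hardly detect. Of its 50-base stretches, 23.1% also occur in ZNF135. The reason for the difference was not tested.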

How the results depend on the processing

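The direction of the 12 members given in full was the same under every alternative, except ZSCAN21, whose log2 fold change ran from -0.20, without control replicate 2, to 0.44, without control replicate 1. The number of genes called changed with the processing and with the libraries kept. With no gene called by the edgeR test, the alternatives called 16 genes higher and 3 lower without the low-count filter, and 230 and 267 by DESeq2. DESeq2 after the edgeR filter, an alternative added after seeing the data as were those of the chromosome 6 cluster, called 212 and 259. With each library left out, 12 to 3710 genes were called higher and 3 to 3729 lower. The highest counts came without control replicate 1 (3710 and 3729) and without control replicate 2 (2374 and 2183), where the 1 control left is taken to vary as the knockdown libraries do. The cause was not tested.

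Members called higher numbered 1 without the filter, 1 by DESeq2 in either form and 0 to 14 with a library left out, with 14 without control replicate 1 and 2 without control replicate 2. Members called lower numbered 0 to 2. Members lying apart numbered 10 to 18 higher and 2 to 11 lower with a library left out, 18 higher without control replicate 1 and 11 lower without control replicate 2. With a library left out this mark is easier to meet. The share of all tested genes lying apart was not computed for these settings, so these counts are no result about the members. The numbers of members called with a library left out are no result about the members either. Calls over all genes were also highest without a control replicate, as given above. The share of all tested genes called was not computed for these settings. The member median ranged from -0.16 to 0.72. ZNF217 had -1.03 by DESeq2 (adjusted p 0.0115, or 0.00911 after the edgeR filter). By limma it had -1.01 (adjusted p 0.194), and by edgeR with the replicate number as a block -1.01 (adjusted p 0.0872). With a library left out it ranged from -1.13 to -0.89, with -1.09 without control replicate 1 and -0.93 without control replicate 2.

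With the replicate number as a block, edgeR called 160 genes higher and 124 lower and 1 member, ZSCAN31. The numbers were not shown to pair the samples. Across the 12965 tested genes, the log2 difference of replicate 2 minus 1 in control and that in knockdown had a correlation of -0.0316.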
